A study of Mus musculus with 32 samples.

Results

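Parent-of-origin bias was measured across the autosomal genes of whole mouse brain at embryonic day 15 (E15). The members were the genes on chromosomes 1 to 19 that averaged 20 or more informative reads over the pools, which gave 14188 of the 17936 genes listed for the embryo. Single bases of the genome alignment were taken by the same rule and numbered 87849 of 301580. F1i embryos had a CAST/EiJ (CAST) mother and a C57BL/6J (B6) father, and F1r embryos had a B6 mother and a CAST father. CAST is an inbred strain derived from wild mice of another subspecies, so reads covering a differing base show which parent the chromosome came from. Each sample combined RNA of 4 to 5 embryos, and the 4 technical replicates of each cross had been summed, which left 1 F1i pool and 1 F1r pool. The sex of the embryos was not given. E15 brains of pure CAST and pure B6 served as a check of the bases, and 8 adult F1 pools served for comparison. Those came from 5-week-old animals of the same reciprocal crosses, 8 to 10 per pool, split by sex and cross for the preoptic area (POA) and for the medial prefrontal cortex (PFC).

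In genomic imprinting a gene is expressed mainly or wholly from the chromosome inherited from a given parent. The choice is set by DNA methylation laid down in the egg or the sperm at control regions, and neighbouring imprinted genes often share such a region together with a long noncoding RNA. Several imprinted genes use the maternal allele in one tissue or isoform and the paternal allele in another, and in the brain many of them act in growth, feeding and behaviour.

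The maternal share of a gene was the percentage of its informative reads with the CAST base in F1i and with the B6 base in F1r. A bias that follows the parent puts this share above 50% in both crosses or below it in both, whereas a bias that follows the strain puts it on opposite sides. The F1i pool held 11044974 informative nuclear reads and the F1r pool 11384410, and CAST bases made up 48.1% and 47.8% of the autosomal ones. Mitochondrial reads, which come from the mother, were 98.8% maternal in F1i and 99.9% maternal in F1r. Markers of neurons summed to 5005 per 1000000 informative reads in F1i and 3801 in F1r, those of neural progenitors to 1126 and 1023, and those of choroid plexus to 2040 and 2632. Single markers did not all follow their sums. Of the neuronal ones Tubb3 had 2696 in F1i and 1486 in F1r, and Sox11, Gap43, Elavl3 and Neurod2 were lower in F1r as well. Dcx went the other way with 1140 in F1i and 1431 in F1r, as did Stmn2, and Map2 was not listed. Ttr carried the choroid plexus sum with 1906 in F1i and 2508 in F1r. Kl and Kcne2 were also higher in F1r, while Clic6, Folr1 and Otx2 were lower. The progenitor gene Fabp7 had 6.7 in F1i and 119.8 in F1r. Of 7 blood markers Hbb-y and Hba-a1 were not listed, and the other 5 summed to 1427 in F1i and 2185 in F1r. Hbb-b1 made up most of this with 1384 in F1i and 2161 in F1r, while Alas2, Slc4a1 and Hba-x were lower in F1r. Markers of muscle and epidermis stayed at 10.0 in F1i and 9.8 in F1r, with Krt5 and Krt14 not listed. The part of these differences in the results below was not tested. In bulk RNA fewer cells of a type and less RNA per cell cannot be told apart.

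The bases that carry the parental signal are shown for 11 transcripts, because maternal and paternal transcripts of the domains described here are among them. Each is the deepest base of its transcript that could be placed in the genome alignment and had its reference base listed. The letters are those of the mm9 genome in the sense of the transcript, 5′ to 3′, and the capital marks the B6 base at which CAST differs.
Meg3: gtgagcatgcaaAgagaacccagct
H13: atccagcagccgAgactgaatccaa
Zim1: aaaccagcatacCgggcaataagga
Hm13: gaagtaaagccaAtgaattttatta
Peg3: cagcaccagtgcAggtggtgcggag
Peg10: tcacacatcatcGacatcccgcatc
Peg13: ctggaagctgagCgaacccctttac
BC070450: ttacattttctgGggtcagattgct
AF217545: gggaggtggtaaCgtatctccaggt
Inpp5f: attaacaatggtAaaactgtatttt
Plagl1: ctttgaagacacTacattttgtttt

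With positions counted from 1 at the 5′ end of each printed stretch, the Meg3 base was A13C (chr12:110797919-110797943, plus strand, exonic). It was read from the maternal allele in 95.7% of F1i reads and 99.4% of F1r reads. The Zim1 base C13A (chr7:6630748-6630772, minus strand, exonic) was 70.3% maternal in F1i and 86.0% in F1r. At the other end stood Peg3, whose base A13C (chr7:6660313-6660337, minus strand, exonic) had 0 of 684 maternal reads in F1i and 0 of 112 in F1r. The exact (Clopper-Pearson) 95% intervals reach up to 0.538% and 3.24%, and like all intervals here they cover counting error only. Intervals of whole genes sum over bases, where a read can be counted again, so they can be too narrow. The H13 base A13T (chr2:152530381-152530405, plus strand, exonic) was 83.3% maternal in F1i and 93.6% in F1r. The Hm13 base A13G (chr2:152509083-152509107, plus strand, exonic), within the same gene, was 9.36% maternal in F1i and 9.20% in F1r. The 2 transcripts of the H13 gene were thus read from opposite parents in both pools.

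Among the other lines, Peg10 carried G13A (chr6:4709359-4709383, plus strand, exonic) with maternal shares of 1.25% in F1i and 0.221% in F1r. Peg13 carried C13T (chr15:72640344-72640368, minus strand, within an intron of Trappc9) with 0 of 850 maternal reads in F1i (upper bound 0.433%) and 4.05% in F1r. The bases of Inpp5f (A13G, chr7:135839308-135839332, plus strand, exonic) and Plagl1 (T13C, chr10:12851186-12851210, plus strand, exonic) were likewise paternal. Their maternal shares were 4.50% in F1i and 5.76% in F1r for Inpp5f, and 0 of 61 reads in F1i (upper bound 5.87%) and 0.680% in F1r for Plagl1. BC070450 (G13A, chr7:67084498-67084522, minus strand, intergenic) had no maternal read among 168 in F1i or 184 in F1r, with upper bounds of 2.17% and 1.99%. AF217545 (C13T, chr6:30756314-30756338, plus strand, within an intron of Copg2) had 0.468% in F1i and 1.18% in F1r.

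Across the 14188 genes, 756 (5.33%) differed between the pools at an adjusted p under 0.05 and kept their parental side in both. The test was a two-sided Fisher's exact test of the allele counts, adjusted by the Benjamini-Hochberg method, and it compares these 2 pools, not the crosses in general. Of these calls 491 (3.46% of genes) were maternal and 265 (1.87%) paternal, so 64.9% were maternal, and 2996 genes had an unadjusted p under 0.05. Another 823 genes passed the adjusted threshold but lay on opposite sides of 50%. Tested against the median odds ratio of all nuclear genes in place of 1, 682 genes were called and 54.5% of them were maternal. With the spread of the adult pools as the error, edgeR called 50 of the 9993 genes measured at both ages. All 50 were among the 626 of these genes that the exact test called. The fit held no term for the adult region, so this spread includes differences between POA and PFC. A share of 70% or more for 1 parent, in F1i and in F1r, was reached by 66 genes (0.465%), 22 of them maternal (0.155%) and 44 paternal (0.31%).

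**Figure D1:**
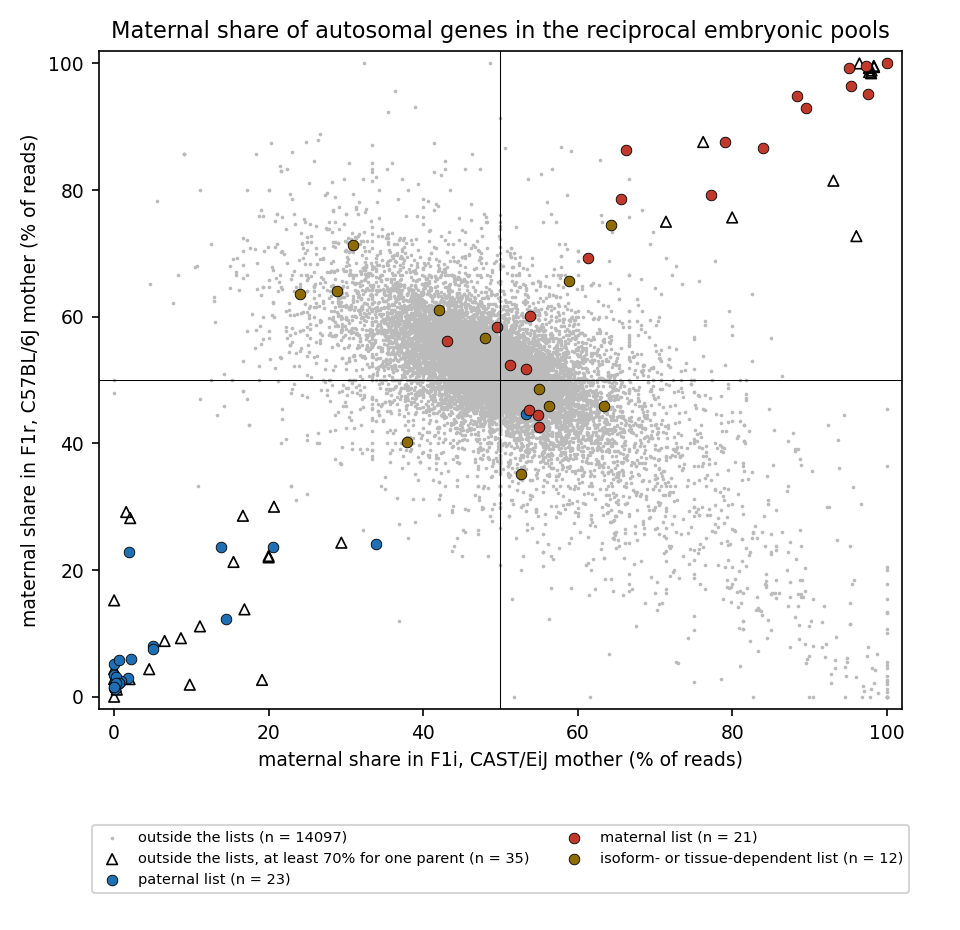
Maternal share of each autosomal gene in the F1i pool (horizontal axis, % of reads) against the F1r pool (vertical axis, % of reads), 1 point per gene. Listed imprinted genes are coloured, and triangles are the 35 genes outside the lists at 70% or more for 1 parent; the cloud of other genes slopes along the falling diagonal, where a strain bias would place them.

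Known imprinted genes were taken as 3 lists: genes known for paternal expression, for maternal expression, and for expression that depends on tissue or isoform. Of the paternal list, 23 of 31 genes reached the read minimum and 22 of those were called paternal, against 1.87% of all genes. Their median maternal share was 2.41%, beside 50.3% over all genes tested, and 21 of the 22 reached 70% in both crosses. Sfmbt2, a Polycomb-group protein, was not called, with 53.3% maternal reads in F1i and 44.6% in F1r. Of the other 8, 3 were listed below the minimum (Rtl1, Dio3 and Kcnq1ot1), and Zfp264, Ins2, Nnat, Nespas and Airn were not listed.

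The Peg3 domain on chromosome 7 held both paternal and maternal genes. Peg3, which encodes a large zinc finger protein, had maternal shares of 0.11% (95% interval 0.03 to 0.282) in F1i and 1.31% (0.974 to 1.72) in F1r. Usp29, its neighbour of the ubiquitin protease family, had 0.213% in F1i and 2.15% in F1r. Zim1, a zinc finger gene of the same cluster on the maternal list, went the other way with 79.0% (76.1 to 81.8) in F1i and 87.5% (85.3 to 89.6) in F1r. Both pools placed Zim1 on the maternal side, but 21.0% of F1i reads and 12.5% of F1r reads still came from the paternal allele.

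In the Prader-Willi and Angelman domain, 6 of the 8 tested genes were called paternal. Snrpn, which encodes a protein of the spliceosome, had maternal shares of 0.628% in F1i and 2.13% in F1r. Snurf, read from the same transcript, had 0.084% in F1i and 1.25% in F1r. Ndn (necdin) had 0.670% in F1i and 5.78% in F1r. The related Magel2 had 0 of 124 reads in F1i (upper bound 2.93%) and 3.42% in F1r. Mkrn3, a ring finger protein, had 0.879% in F1i and 2.42% in F1r. Peg12 was less one-sided, with 20.6% (13.2 to 29.7) in F1i and 23.7% (15.5 to 33.6) in F1r. The log2 ratio of Peg12 was -3.59 over its bases, but -8.89 on its deepest base alone and with a parental purity of 95%. The called genes of this domain thus all lay below 24% in both pools.

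The remaining paternal genes ran from near silence of the maternal allele to partial bias. Plagl1, a zinc finger transcription factor, had 0.260% maternal reads in F1i and 3.05% in F1r, and Rasgrf1, an exchange factor for Ras, had 0 of 145 reads in F1i and 1.35% in F1r. Zrsr1, a splicing-factor retrogene, had 0 of 90 maternal reads in F1i and 1.48% in F1r. With no maternal read among 145 or 90, maternal shares of up to 2.07% and 3.33% (3 counts of the total) remain possible in F1i. The log2 ratio of Rasgrf1 was -14.06 on its most-read transcript, but -4.19 over all transcripts. Peg10, derived from a retrotransposon, had 0.677% in F1i and 2.09% in F1r, and its neighbour Sgce had 5.04% in F1i and 7.53% in F1r. The log2 ratio of Sgce was -7.74, but -12.88 on its deepest base. Nap1l5 had no maternal read in F1i (upper bound 0.937%) and 5.19% in F1r. Dlk1, a Notch-like membrane protein, had 1.84% in F1i and 2.99% in F1r. Igf2, a fetal growth factor, was the least biased of the called genes, with 33.9% (32.0 to 35.8) in F1i and 24.1% (22.7 to 25.6) in F1r. Its 3 informative genomic bases spanned 29.7% to 39.8% in F1i and 23.4% to 31.5% in F1r. Igf2 was the 1 paternal-list call that missed the 70% rule, with 33.9% maternal reads in F1i.

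Impact, a regulator of the translation kinase Gcn2, differed most between the crosses among the paternal calls of the lists. Its maternal share was 1.95% (0.844 to 3.8) in F1i, where B6 was the father, and 22.9% (19 to 27.2) in F1r, where CAST was the father. The intervals did not overlap. Mcts2, a retrogene inside H13, had 13.9% in F1i and 23.7% in F1r from 72 and 93 reads, and Slc38a4, an amino acid transporter, had 14.5% in F1i and 12.2% in F1r. For both the intervals of the pools overlapped. Inpp5f, an inositol phosphatase, had 5.00% in F1i and 8.01% in F1r, and Mest had 2.14% in F1i and 5.90% in F1r.

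Of the maternal list, 21 of 37 genes were tested and 16 were called maternal, against 3.46% of all genes. Their median maternal share over the 21 was 76.3%, and 10 reached 70% in both crosses. The noncoding RNAs H19 and Meg3 were nearly wholly maternal. H19 had 97.3% (96.6 to 97.8) in F1i and 99.6% (99.3 to 99.7) in F1r, and Meg3 had 95.2% (94.7 to 95.6) in F1i and 99.3% (99.2 to 99.4) in F1r. Cdkn1c, an inhibitor of the cell cycle, had 95.4% in F1i and 96.4% in F1r, and Calcr, the calcitonin receptor, had 97.6% in F1i and 95.2% in F1r. Kcnk9, a potassium channel gene, had no paternal read among 35 in F1i and 12 in F1r, which still allows paternal shares of up to 8.57% and 25.0% (3 counts of the total). Asb4 had 88.5% maternal reads in F1i and 94.9% in F1r, and H13, the signal peptide peptidase, had 89.6% in F1i and 92.9% in F1r.

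A second group of maternal genes kept a sizeable paternal contribution. Blcap had 84.0% maternal reads in F1i and 86.7% in F1r. Trappc9, a subunit of a vesicle tethering complex, had 77.2% (74.7 to 79.7) in F1i and 79.2% (76.5 to 81.7) in F1r. The log2 ratio of Trappc9 was 3.69, but 1.97 over all transcripts. Copg2, a coatomer subunit, had 65.6% in F1i and 78.6% in F1r, and Eif2c2, which encodes an Argonaute protein, had 66.3% in F1i and 86.3% in F1r. Igf2r, the receptor that clears Igf2, had 61.4% (56.3 to 66.3) in F1i and 69.2% (64 to 74.1) in F1r. Herc3 had 53.9% in F1i and 60.1% in F1r. The weakest calls were Cd81, with 53.3% in F1i and 51.7% in F1r, and Ppp1r9a, with 51.3% in F1i and 52.4% in F1r (Fisher's exact test, adjusted p = 0.00591 and 0.0309). Copg2, Herc3, Cd81 and Ppp1r9a lost their call with the adult spread, which includes differences between POA and PFC. Ppp1r9a also lost it against the median odds ratio. Herc3, Cd81, Ppp1r9a and Igf2r lost it on the deepest base alone.

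The other 5 tested members of the maternal list, Nap1l4, Osbpl5, Slc22a3, Tssc4 and Ube3a, were not called. Osbpl5 had 49.6% maternal reads in F1i and 58.4% in F1r; its log2 ratio of 0.47 ± 0.17 (SE of counting) passed Fisher's exact test (adjusted p = 0.0465), but the pools lay on different sides of 50%. Nap1l4 had 55% in F1i and 42.6% in F1r, Tssc4 had 54.9% and 44.5%, and Slc22a3 had 53.7% and 45.2%. Ube3a, a ubiquitin ligase known for maternal expression in mature neurons, had 43.0% (35.0 to 51.3) in F1i and 56.1% (50 to 62.2) in F1r, with a log2 ratio of -0.05 ± 0.30. The Kcnq1 domain, to which Nap1l4, Osbpl5, Tssc4, Cd81 and Cdkn1c belong, thus held 1 strongly maternal gene among 7 tested. Of the 16 untested genes of this list, 5 were below the minimum and 11, Rian and Mirg among them, were not listed under their symbols.

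On the tissue- and isoform-dependent list, 12 of 14 genes were tested (Zim2 and Ano1 were not listed), 1 was called maternal and 1 paternal. Grb10, an adaptor that restrains growth-factor signalling, was maternal with 64.3% (57.7 to 70.5) in F1i and 74.6% (69.5 to 79.1) in F1r. Begain, a synaptic scaffold-binding protein, was paternal, with maternal shares of 38% (33.5 to 42.6) in F1i and 40.3% (35.6 to 45.1) in F1r. Begain lost its call on the deepest base alone and with the adult spread. Gnas, the stimulatory G protein subunit, had 30.9% in F1i and 71.3% in F1r, Dcn (decorin) had 28.8% and 64%, and Dhcr7, which makes cholesterol, had 24% and 63.5%. These 3 genes lay on opposite sides of 50%, with more B6 than CAST reads in both crosses. Casd1 leaned to CAST, with 63.5% maternal reads in F1i and 45.8% in F1r. Atp10a, Cobl, Ddc, Gatm, Htr2a and Th were not called either, and their shares ran from 42.1% to 58.8% in F1i and from 35.2% to 65.7% in F1r.

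**Figure D2:**
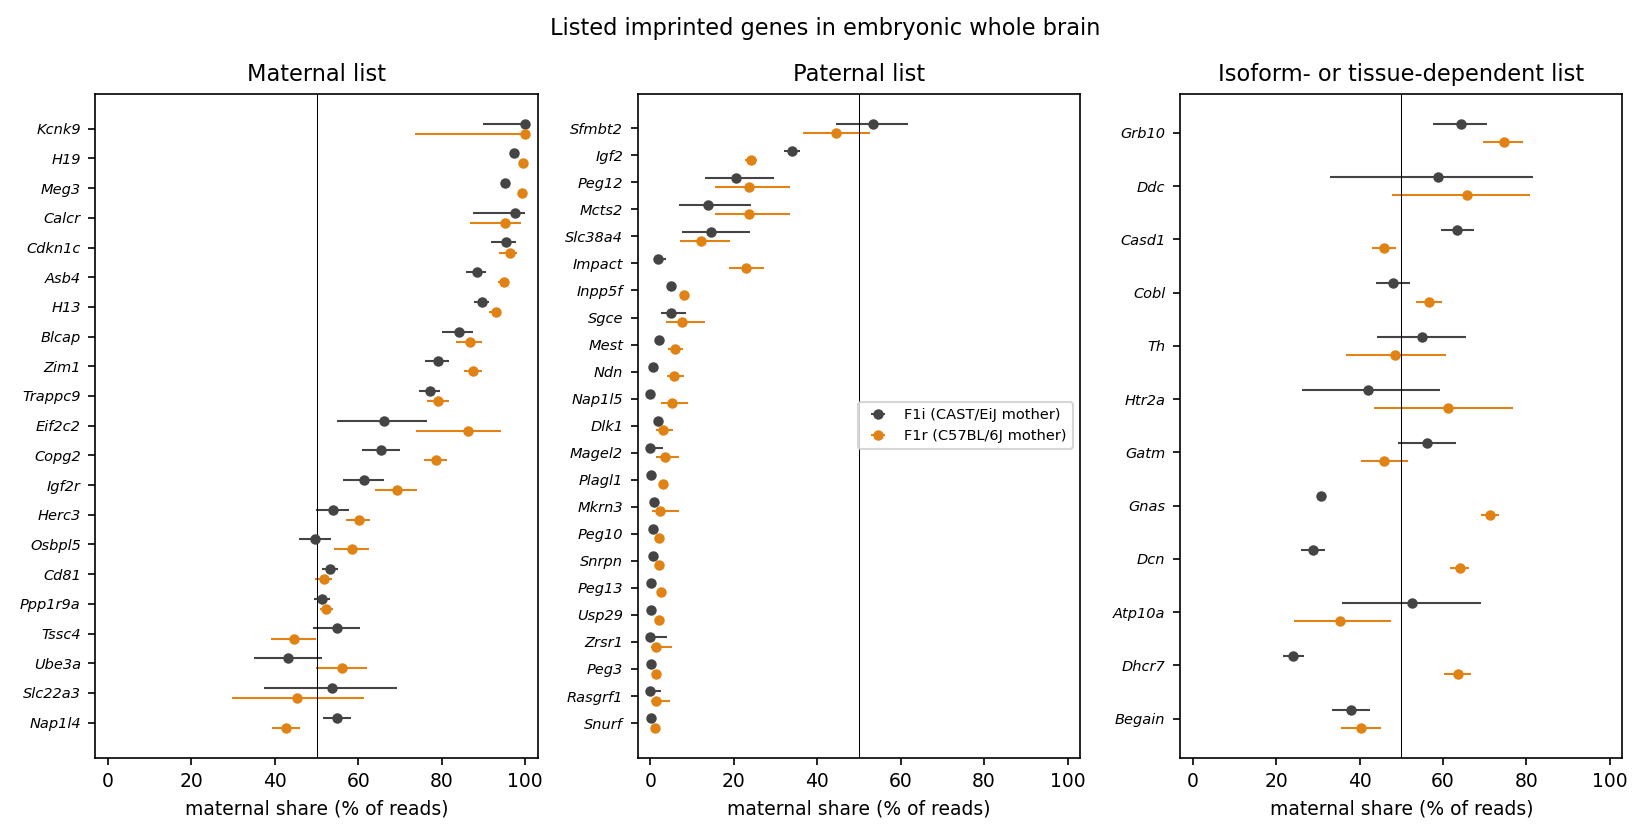
Maternal share (% of reads) of every tested listed gene in F1i (grey) and F1r (orange), with exact 95% intervals that cover counting error only; the line marks 50%. The paternal list lies at the left except Sfmbt2, while the maternal list grades from Kcnk9, H19 and Meg3 near 100% to genes near 50%.

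Outside the lists 716 of 14132 genes (5.07%) were called, but most of them only just. The 474 maternal calls had a median maternal share of 55.1% and the 242 paternal calls of 44.2%, and over all 756 calls 538 lay under 55% for their parent in the weaker cross. The share of genes called outside the lists grew with depth, from 1.78% of genes with 20 to 50 reads per pool to 13.1% of those above 5000. Only 35 of these genes reached 70% in both crosses, 12 maternal and 23 paternal. Membership went by symbol, so transcripts placed in listed genes count as outside, such as Hm13 in H13 and AK077315 in Mirg. Of the 35, 13 had a mean under 50 reads, and 22 were transcripts of chromosomes 7 and 12.

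The most one-sided maternal transcripts outside the lists came from chromosome 12, where Meg3 lies. AF498301 had 98.4% maternal reads in F1i and 99.4% in F1r, AF498300 had 98.3% and 99.6%, and AF498302 had 98.0% and 98.9%. AK017440 had 97.7% in F1i and 98.6% in F1r from a mean of 11370 reads, and AJ517767 had 98.0% and 98.4%. AK157178 had 97.7% in F1i and 99.3% in F1r, and AK077315, placed in Mirg (chr12:110978158-110979504), had 96.5% and 100% from a mean of 134 reads. All 7 were thus above 96% in both pools. DQ715667 on chromosome 15 completed the maternal group with 76.3% in F1i and 87.6% in F1r. No other maternal transcript outside the lists met both 70% and a mean of 50 reads.

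The paternal transcripts outside the lists that led by share came from chromosomes 6 and 7. AF217545, placed within Copg2 (chr6:30755116-30757359), had 0.346% maternal reads in F1i and 1.12% in F1r from a mean of 5631 reads. AF365932, placed within Usp29 (chr7:6914059-6916009), had 0.223% in F1i and 1.63% in F1r. BC070450 (chr7:67082644-67085842), which lies between the annotated small nucleolar RNA genes SNORD116 and Snord64, had 0.580% in F1i and 2.84% in F1r. AK035645 had no maternal read among 25 in F1i and 78 in F1r, which allows up to 12% and 3.85% (3 counts of the total). AK035901 and AK083195 share bases at chr7:69126912-69127165 and had 0% and 2.00% in F1i against 2.78% each in F1r. AK086712, DOKist4, AK080655 and AK081140, also of chromosome 7, ran from 6.54% to 11.1% in F1i and from 1.90% to 11.1% in F1r. On its deepest base alone AK086712 lost its call, with a log2 ratio of -1.14 in place of -7.12. The log2 ratio of DOKist4 was -6.63, but -15.47 with a parental purity of 95%, and that of AK080655 was -8.71, but -15.89 in edgeR with the adult spread.

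The adult pools, which the embryonic calls did not use, gave the side of each gene again. Of the genes with at least 90% for their parent in both embryonic crosses, 33 of 33 measured in POA kept that side in all 4 POA pools, and 28 of 28 did so in PFC. Between 70% and 90% the counts were 10 of 11 in POA and 6 of 7 in PFC, and between 60% and 70% they were 6 of 23 and 4 of 18. Of the 602 calls under 60% that were measured in POA, 27 (4.49%) lay on the same side in all 4 pools and 26 (4.32%) on the opposite side. For genes that were not called but lay on one side in both embryonic pools, 4.35% were on the same side and 3.87% on the opposite side in POA. In PFC 27 of 586 weak calls (4.61%) were on the same side and 10 (1.71%) on the opposite side, beside 3.38% and 3.24% of uncalled genes. The weak calls and the uncalled genes were close in POA, and the difference between them was not tested.

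**Figure D3:**
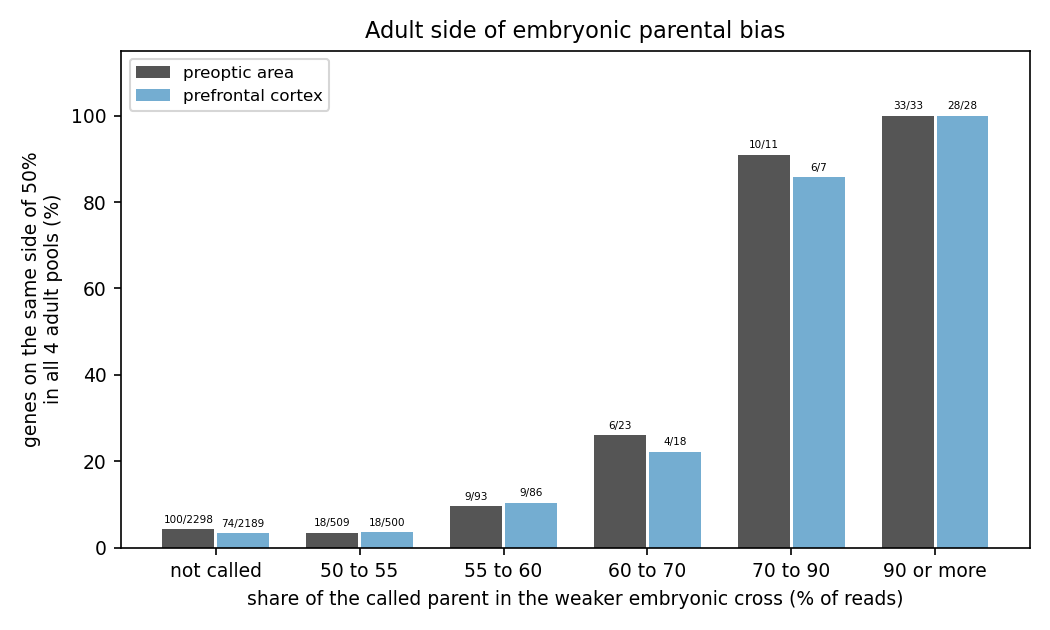
Percentage of genes that lay on the same side of 50% in all 4 adult pools (vertical axis), by the share of the called parent in the weaker embryonic cross (horizontal axis), for POA (grey) and PFC (blue). Counts above the bars are genes on that side over genes measured; the bars reach 100% at 90% or more and stay under 5% between 50% and 55%.

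Single bases of the genome alignment reach introns and unannotated sequence. Of 87849 bases, 1980 (2.25%) were called by Fisher's exact test (Benjamini-Hochberg adjusted), 1279 of them maternal and 701 paternal, and 11154 had an unadjusted p under 0.05. At 70% or more in both crosses stood 698 bases (0.795%). Called bases made up 2.06% of exonic, 3.34% of intronic and 3.55% of intergenic bases. Called bases with gaps of at most 500 kb formed 60 runs of 5 or more, and 30 of these runs held no base at 70%. Leaving aside 3 runs that match the mitochondrial genome, 14 runs with at least 5 such bases held 536 of the 698 (76.8%).

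The longest list of maternal bases lay in the Dlk1-Dio3 domain (chr12:110098680-110987352), with 181 called maternal and 9 paternal. At 70% or more stood 81 maternal bases in Meg3, 66 in Rian and 18 in Mirg, which are noncoding RNAs; Rian and Mirg were not listed as genes. Their median maternal shares were 97.7% in F1i and 99.4% in F1r for Meg3, 98.0% and 100% for Rian, and 100% in both for Mirg. Within Rtl1, the retrotransposon-derived gene on the paternal list, 5 bases were 100% maternal at the median in both pools. Reads antisense to Rtl1 cannot be told apart here. Dlk1 itself carried 5 paternal bases with medians of 0% in F1i and 1.33% in F1r.

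The Prader-Willi and Angelman domain gave a pair of runs on chromosome 7. In chr7:66489046-67556024 there were 72 paternal and 2 maternal bases, 45 of the 74 outside annotated genes, and in chr7:68155699-69564301 all 25 called bases were paternal. The Peg3 domain (chr7:6625061-6919880) had 47 paternal and 11 maternal bases among 58 tested, and every tested base there was called. In chr15:72337996-72944258 the 31 paternal bases at 70% or more lay within Trappc9, which contains Peg13, together with 11 maternal ones. Smaller runs covered Plagl1 (17 of 17 bases paternal), Sgce and Peg10 (16 of 16 paternal), Asb4 (14 of 15 called maternal) and Inpp5f (7 of 7 paternal). Within Kcnq1 itself the 4 tested bases were intronic and had no maternal read in either pool. They held 13 to 61 reads a base in F1i and 4 to 29 in F1r, where 4 reads still allow a maternal share of up to 75.0%. Reads antisense to Kcnq1 cannot be told apart here. H19 carried 9 maternal bases.

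Zdbf2 on chromosome 1, a zinc finger gene that none of the lists held, carried 9 tested bases (chr1:63350585-63580877 for the run), and all were called paternal. Their maternal shares ran from 0% to 16.7% in F1i, with a median of 3.85%, and from 0% to 3.8% in F1r, with a median of 1.29%. The deepest of them had 0 of 85 maternal reads in F1i and 3 of 233 in F1r. The shares of all 9 bases stayed below 17% in both pools. No tested gene carried the symbol Zdbf2, and older names were not searched for genes outside the lists.

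Within the spans of some genes, among them H13, Copg2, Ube3a and Gnas, the side of the bias changed with position. H13 (chr2:152495197-152534406) contains the retrogene Mcts2 (chr2:152512884-152513676) in an intron and is known to end at different sites upstream and downstream of it. The 14 bases from 10 kb after its start to the end of Mcts2 had median maternal shares of 14.5% in F1i and 20.9% in F1r, 10 of them called paternal and none maternal, and single bases there reached 57.1% in F1r. The 14 bases after Mcts2 had medians of 92.3% in F1i and 93.3% in F1r and were all called maternal. The single base before 10 kb was maternal as well, with 73.5% in F1i and 88.9% in F1r. Of the bases of the middle stretch, 1 lies in Mcts2 itself, where reads of Mcts2 and H13 cannot be separated.

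In Copg2 (chr6:30697554-30846794, minus strand) the 22 intronic bases were all called paternal, with median maternal shares of 0% in F1i and 0.715% in F1r. Some of these bases are those of AF217545, the paternal transcript placed on the plus strand at chr6:30755116-30757359. Reads of the strands were not separated, so the intronic reads cannot be assigned to Copg2. Of its 7 exonic bases 5 were called maternal. The 2 paternal exonic bases lie at the end where Copg2 overlaps Mest, and had 0.91% and 8.16% in F1i against 2.77% and 29.2% in F1r. In Ube3a (chr7:66484122-66562097, plus strand) all 21 intronic bases were called paternal, with medians of 0% in both pools. The 3 exonic bases differed, with 29%, 25.7% and 72% maternal reads in F1i and 66.7%, 30.5% and 77.9% in F1r along the gene. A base just past the annotated end was 80.6% maternal in F1i (908 maternal and 219 paternal reads) and 84.8% in F1r (436 and 78). The domain is known for an antisense transcript through Ube3a, and reads of the 2 strands were not separated. In Gnas 2 exonic bases near the annotated start were called maternal, with 94.8% and 88.5% in F1i and 100% and 98.2% in F1r, and 1 exonic base further along was called paternal, with 2.56% in F1i (1 of 39 reads) and 14.3% in F1r (1 of 7 reads).

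**Figure D4:**
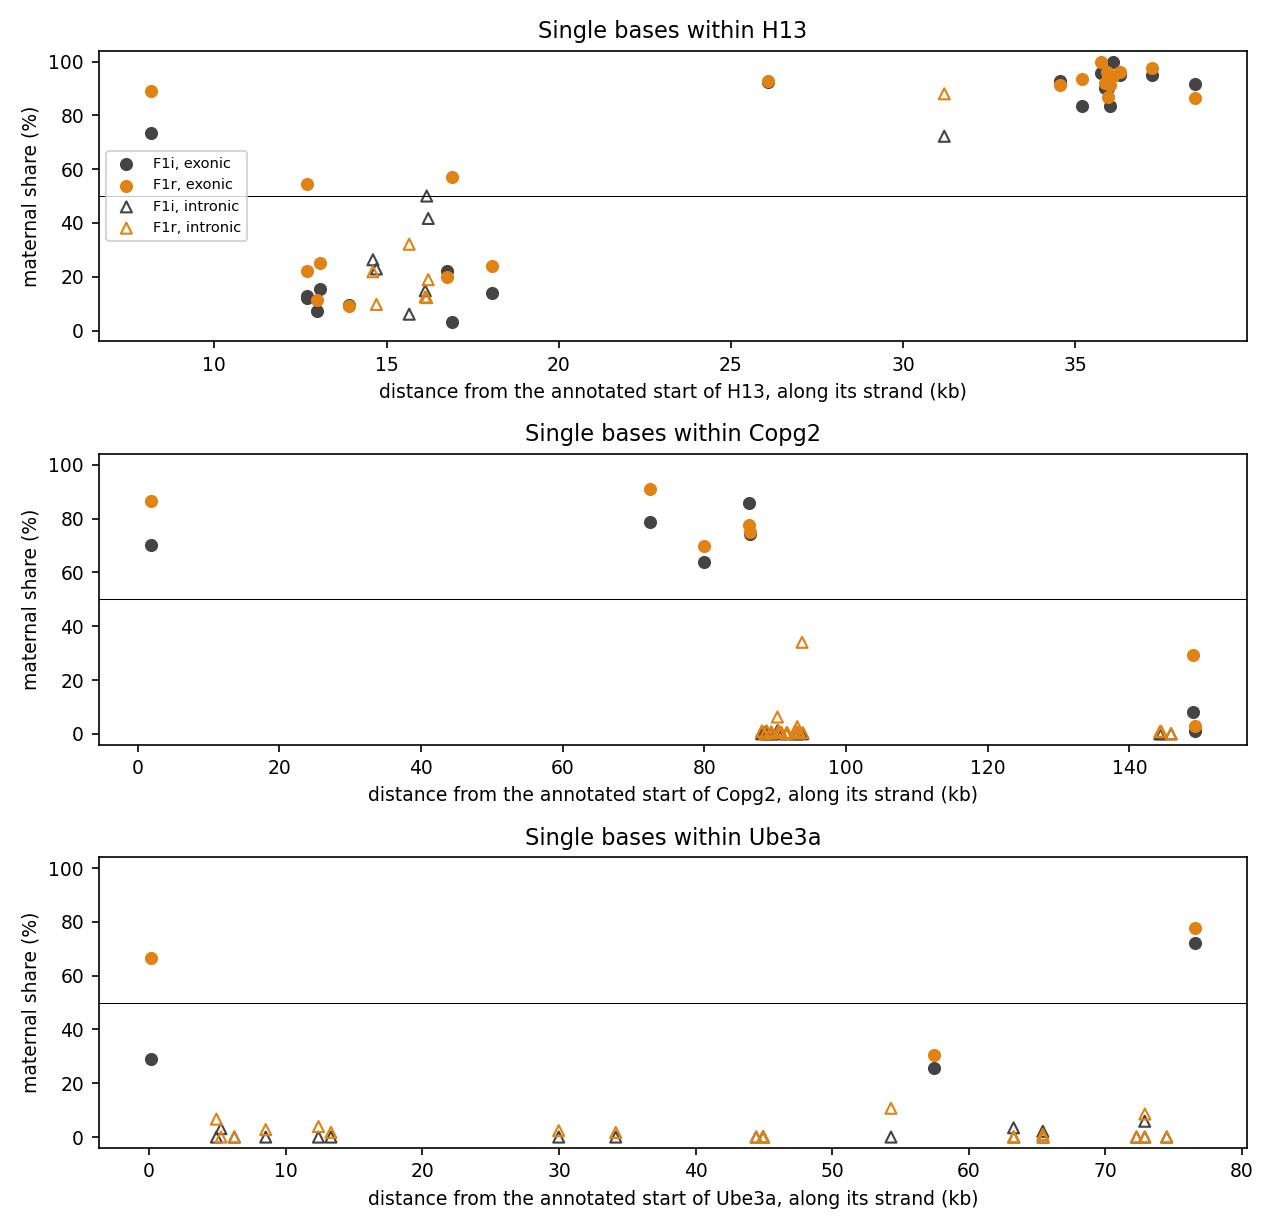
Maternal share (% of reads) of single bases within H13, Copg2 and Ube3a against their distance from the annotated start of the gene along its strand (kb), in F1i (grey) and F1r (orange), for exonic (filled circles) and intronic bases (open triangles). All H13 bases past Mcts2 lie above 70%, and the intronic bases of Copg2 and Ube3a have medians under 1%, with single F1r bases up to 34.0% in Copg2 and 10.7% in Ube3a.

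Whether bias differed along the spliced transcript was tested with Woolf's test of homogeneity over bases at least 36 apart. It called 1307 of 8960 genes (14.6%) at a Benjamini-Hochberg adjusted p under 0.05, with 2494 at an unadjusted p under 0.05, so a call was common in these 2 pools. Of 39 list members tested, 13 were called. Gnas was 85.2% maternal in F1i and 98.4% in F1r at transcript position 917, but 29.2% and 70.1% at position 1909 (adjusted p = 2.17e-08). Ube3a was 27.8% in F1i and 30.3% in F1r at position 2550, but 72.5% and 77.6% at position 3651 (adjusted p = 1.72e-09). Snrpn spanned a mean share of 0.627% to 10.1% and Mest of 1.83% to 8.23% without leaving the paternal side. Dlk1, Igf2r, Trappc9, Copg2, Cd81, Ppp1r9a, Casd1, Dcn and Dhcr7 made up the other 9. Of the 13, 6 lost the call under an alternative: Trappc9 and Casd1 with at least 50 reads per base, Cd81 and Dhcr7 with bases at least 72 apart, Copg2 with a pseudocount of 1 and Snrpn with a parental purity of 95%. Begain gained a call with the wider spacing and with the purity filter.

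The genes of smallest adjusted p along the transcript were all outside the lists. Among them were Stmn1, Hsp90ab1, H3f3b, Eef1a1, Ywhag, Tuba1a, A930034L06Rik, Tuba1c and BC134356. Stmn1, which encodes a microtubule regulator, spanned mean maternal shares of 39.4% to 47.9%. H3f3b, a histone gene, spanned 44.8% to 65.4%, and Hsp90ab1, a chaperone, 47.4% to 58.1%. A930034L06Rik had the widest span of those named, from 30% at a base with 26 F1i and 41 F1r reads to 61.3%. The spans are means of the crosses, which lay on opposite sides of 50% at some bases. In F1i and F1r, 1 base had 84.9% and 45.9% in H3f3b, 10.8% and 67.9% in Stmn1, and 97.8% and 1.65% in Eef1a1. The other H3f3b base had 39.7% and 49.8%. Of the genes named here, Hsp90ab1 alone was called for a parent as a gene. Eef1a1, H3f3b and the tubulin genes have close copies that can share reads, and Tuba1a lost its call with a parental purity of 95%.

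Embryo was set against adult brain on the bases read at both ages, with edgeR's quasi-likelihood test of the allele by cross by age term on the 2 embryonic and the 8 adult pools. The embryonic pools were assumed to vary like the adult ones. No term for the adult region was fitted, so differences between POA and PFC count as spread. Of 9993 genes, 6 (0.06%) differed at a Benjamini-Hochberg adjusted p under 0.05, 3 more maternal and 3 more paternal in the embryo, and 427 had an unadjusted p under 0.05. DESeq2 called the same 6. Of 39 list members tested 5 were called, and 21 lay on the same side of 50% in all 10 pools. Embryonic and adult shares did not overlap for 6 of the 39. Neither count was made over all genes, and the calls rest on the same shares. Age and dissection cannot be told apart, since the embryonic tissue was whole brain and the adult tissue a single region.

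Grb10 and Igf2 changed sides. On the shared bases Grb10 was 64.3% maternal in F1i and 74.6% in F1r embryos, while the 8 adult pools ranged from 0% to 10.0% with a median of 1.84%. The difference in log2 ratio was 14.29 ± 0.75 (SE from the fit, edgeR adjusted p = 9.22e-08). Igf2 was 33.9% and 24.1% maternal in F1i and F1r embryos, while the adult pools ranged from 70.6% to 87.5% with 21 to 65 reads each. Its difference was -6.86 ± 0.42 (edgeR adjusted p = 4.38e-07). Over all adult bases of Igf2, shared or not, the lowest PFC pool had 44.2% and the medians were 72.8% in POA and 72.3% in PFC. For both genes the embryonic and adult shares on the shared bases did not overlap, and both calls held with any single adult pool left out.

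Inpp5f and Mest were paternal at both ages and more so in the embryo. Inpp5f had maternal shares of 5.18% in F1i and 7.22% in F1r embryos and of 12.4% to 22.8% in the adult pools. Its difference was -3.08 ± 0.41 (edgeR adjusted p = 0.00759). Mest had 2.14% and 5.90% in F1i and F1r embryos and 9.49% to 38.7% in the adult pools, higher in POA (median 28.8%) than in PFC (median 12.3%). Its difference was -5.14 ± 0.82 (edgeR adjusted p = 0.0319), and the call was lost without the male or the female F1i POA pool or without the female F1i PFC pool. Blcap was more maternal in the embryo, with 84.0% and 86.7% in F1i and F1r embryos and 50% to 72.5% in the adult pools. Its difference was 3.41 ± 0.56 (edgeR adjusted p = 0.0371), and the call was lost without any 1 of 4 adult pools, the F1i male POA, F1i male PFC, F1i female PFC or F1r male PFC pool. Embryonic and adult shares of these 3 genes did not overlap. Nor did those of Igf2r and Dlg4, which were not called (edgeR adjusted p = 0.862 and 0.205). Blcap rests on 2 bases, which in the genome alignment gave 70.4% and 30% maternal reads in F1i and 96.7% and 97.7% in F1r.

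Sp140, a nuclear body protein of immune cells and the 1 call outside the lists, behaved otherwise. It was 94.7% maternal in F1i and 35.8% in F1r embryos, so CAST reads led in both crosses, and the adult pools ranged from 32.5% to 63.0%. The difference was 3.58 ± 0.56 (edgeR adjusted p = 0.0319), lost without the F1r male POA pool or without the F1i female PFC pool. The next 4 genes, Golga7, Rps2, Meg3 and Dlg4, did not pass the threshold, with adjusted p of 0.0649, 0.174, 0.205 and 0.205. Meg3 stayed maternal throughout, at 95.2% and 99.3% in F1i and F1r embryos and at medians of 99.3% in POA and 99.2% in PFC.

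**Figure D5:**
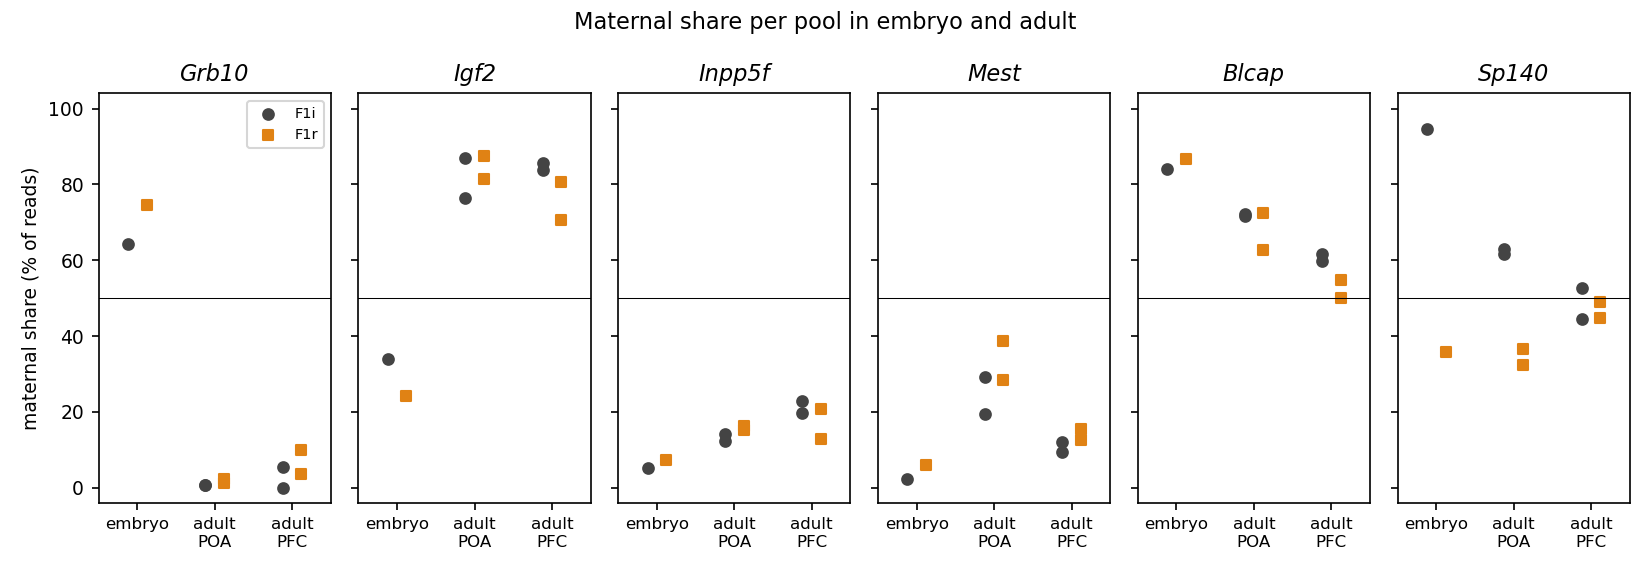
Maternal share (% of reads) on bases read at both ages, 1 point per pool, for embryonic whole brain, adult POA and adult PFC in F1i (grey circles) and F1r (orange squares). Grb10 and Igf2 lie on opposite sides of 50% in embryo and adult, Inpp5f and Mest stay below 50%, and Blcap stays above it except for 1 PFC pool at 50%. Sp140 separates by cross rather than by parent in the embryo.

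Some listed genes differed between the adult regions while the embryo lay near one of them; these values carry no test. Herc3 was 53.9% maternal in F1i and 60.1% in F1r embryos, 74.4% to 79.4% in POA and 50.1% to 60.7% in PFC. Begain was 38% and 40.3% maternal in F1i and F1r embryos, 16.5% to 26.3% in POA and 40.2% to 46.2% in PFC. Hm13, the upstream H13 transcript, was 15.5% and 21.3% maternal in F1i and F1r embryos, 24.4% to 43.2% in POA and 1.18% to 14.8% in PFC. Herc3 and Begain in the embryo were thus nearer to PFC than to POA. Copg2 was 65.6% and 78.6% maternal in F1i and F1r embryos, 86.6% to 95.6% in POA and 74.1% to 83.0% in PFC.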

How the data were processed

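Per the labels' protocols, polyadenylated RNA with an integrity score above 9 gave cDNA from random hexamers, with 200 bp inserts sequenced for 36 cycles. Alignment used Novoalign and mm9, per the submitters' processing notes. The deposited values are raw counts: the authors' tables give, per pool and differing base (SNP), the reads with the CAST and with the B6 base. Every listed SNP has at least 1 read in each pool, so genes silent in a pool are missing.

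The members, gene lists and tests were chosen with earlier results of these data known. Repeated listings (2073) were dropped, and each gene's reads are the sum over SNPs of its most-read transcript; SNPs closer than a read can count a read again. Symbols of accessions and older names (Gtl2 for Meg3, 1810044A24Rik for Trappc9, nS7 for Magel2) were matched through RefSeq names of GRCm38. Snrpn and Snurf have SNPs in common, so their gene counts overlap. Reads are unstranded, so in the genome alignment bases in overlapping spans cannot be assigned to a single gene. This holds for Mest and Copg2, Nap1l5 and Herc3, and Mcts2 and H13. Transcript SNPs were placed on the genome where at least 4 lay on a common diagonal with genomic bases, which placed 34 of 91 genes searched. The mm9 letter matched at all 294 bases with a listed reference base. Gene spans are from GENCODE vM1 on NCBIM37, the same assembly as mm9.

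Calls used Fisher's exact test (SciPy 1.17.1), adjusted over 14673 nuclear genes. The log2 ratio had 0.5 added to each cell. Ages were compared with edgeR 4.0.16 and DESeq2 1.42.0 in R 4.3.3, and mitochondrial matches found with BLASTN 2.17.0+. Fisher's, Woolf's and edgeR's tests were checked on simulated counts. Those held no repeated reads, had no extra spread between pools for Fisher's and Woolf's tests, and an assumed spread for edgeR. The checks therefore do not cover these features of the data. Named are all tested list members, the 10 strongest calls per direction outside the lists with a mean of 50 reads, the 10 smallest adjusted p-values of the tests along the transcript and between ages, and runs of called bases; 1 gene that this rule names along the transcript is not reported here. Other single bases, Hm13 and the genes compared between adult regions were chosen after their values were seen. Alternatives changed the bases summed, read minimum, centring, base purity, error model and thresholds, and along the transcript the reads per base, spacing and pseudocount.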

Additional observations from a re-analysis of the deposited data

Results flagged for a closer look

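The difference between embryo and adult brain, tested as the interaction of allele, cross and age in edgeR, picked out 6 genes. In log2 units, embryo minus adult, the values were 14.29 for Grb10, an adaptor of growth-factor signalling, and -6.86 for Igf2, a growth factor; both lay on opposite sides of 50% at the 2 ages. Inpp5f at -3.08 and Mest at -5.14 were more paternal in the embryo, and Blcap at 3.41 more maternal. Sp140 at 3.58 had opposite sides in the 2 embryonic crosses. On a log scale a share near 0% or 100% gives a large value from few reads, as for Grb10, whose adult pools held 0% to 10.0% maternal reads.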

How the results depend on the processing

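The 756 gene calls became 400 on the deepest base of each gene, 443 at an adjusted p under 0.01 and 50 with the adult spread in edgeR. Of the 718 earlier calls that the deepest base could test, 189 remained. With bases at least 36 apart, so that no read counts again, 536 genes were called. Of the 746 earlier calls that this setting could test, 449 remained. Adjusted over autosomal genes alone, 689 genes were called. The 66 genes at 70% became 105 at 60% and ranged from 44 to 86 elsewhere; with the adult spread 35 were called, of which 34 were among the 35 of the 66 it could test. Of the 40 calls among list members 28 could be tested with the adult spread, and 23 remained. Called bases were 1151 of 19721 (5.84%) with at least 100 reads and fell to 1265 at an adjusted p under 0.01. Of 549 values of called genes under an alternative, 536 kept the call and 13 lost it. Of 140 of uncalled genes, 139 stayed uncalled, and Ube3a, at -0.05, reversed to 3.14 with a maternal call on its deepest base. The fit to all adult pools held no term for region. Its 6 calls between ages became 125 against POA alone and 27 against PFC alone, and 3 to 7 with single adult pools left out. The causes were not tested. The purity filter was not run on genomic bases, where no parental columns were used. No paired analysis was possible because the technical replicates had been summed and the columns carry no replicate numbers. With 1 pool per cross, spread between embryos was not measured, and 20 reads fix a share only roughly.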

Other observations

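Reads of the silent allele were more often B6 than CAST. Over the 22 list members with at least 90% for their parent in both crosses, B6 as the silent allele made up a median of 2.60% of reads and CAST as the silent allele 0.532%, and the B6 value was the higher in 20 of the 22. The same bases in pure CAST brain carried the B6 base in a median of 1.05% of reads, and in pure B6 brain the CAST base in a median of 0%. The part of this in the embryonic values was not tested.

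Stretches of nuclear sequence that match the mitochondrial genome gave maternal runs too. They lay at chr1:24618923-24623018, chr2:22442856-22445958 and chr4:79648720-79650957, matched the mitochondrial genome at 99.94%, 97.36% and 93.01% identity, and held 43 bases at 70% or more.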
